A study of Pleurotus tuoliensis with 9 samples.

Results

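The comparison described here sets mycelium held at 36 °C against mycelium held at 32 °C, and so addresses what the last 4 degrees of heat changed in the mycelial transcriptome of *Pleurotus tuoliensis*, an edible mushroom of the oyster mushroom genus. It rests on the 3 libraries of the severe heat treatment (SHT) and the 3 libraries of the mild heat treatment (MHT), 6 of the 9 libraries of the series, while the 3 libraries of the control at 25 °C (CK) serve as a reference level. All groups were the cultivated strain Zhongnong No.1, grown in the dark on potato dextrose agar at 25 °C for 9 days. On day 10 the SHT plates were moved to 36 °C and the MHT plates to 32 °C, the CK plates stayed at 25 °C, and all were harvested on day 13, after 96 h. Each library came from a plate of its own, but all plates were started from the same initial plate, so that the groups describe 1 strain at 1 time point. Of the 13953 unigenes in the count table, 13018 were counted at least once in every library and entered the test.

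Heat unfolds proteins and loosens membranes. Fungal cells are known to answer with chaperones, which hold or refold proteins, with changes in the sterols and fatty acids of the membrane, and with a shift of resources away from growth. A hypha extends at its tip, where chitin and glucan synthases build new wall, and oyster mushrooms are white-rot fungi, which secrete laccases and peroxidases to break down lignin. Their cells also carry surface proteins such as hydrophobins, and pheromone receptors that act in mating.

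Total counts per library were 4764179 to 5917149 in SHT, 4865930 to 6180053 in MHT and 3925786 to 5014053 in CK. At these totals 1 CPM (a read count divided by the library's total in units of 1000000 reads, scaled by the trimmed mean of M-values) stands for 3.41 to 6.52 reads, depending on the library, so low CPM values rest on few reads. SHT replicate 2 and MHT replicate 3 stood apart from their groups: as the Euclidean distance of log2 CPM over all tested unigenes, they were 61.2 apart, whereas SHT replicate 2 was 65.9 and 67.6 from the other SHT libraries and MHT replicate 3 was 75.6 and 71.3 from the other MHT libraries. SHT replicates 1 and 3 were 43.0 apart, and MHT replicates 1 and 2 were 43.4 apart. Whether the labels or the plates of these libraries differ from the rest cannot be told apart here. They are called the outlying libraries below. List counts that moved by more than 1.5 times with a library left out are therefore also given in that fit, and calls that did not hold without a library are named with that library. Libraries joined by "or" were each left out alone. As markers of mycelium, 42 unigenes were taken whose descriptions name tubulin, actin, septin, chitin or glucan synthase, or elongation factor EF1-alpha. At most 1 of them was without a read in a given SHT or MHT library. The summed level of these unigenes was 5558 to 5935 CPM in SHT, 7059 to 8811 CPM in MHT and 8470.0 to 9910.0 CPM in CK. This sum is not a measure of growth. The 22 unigenes with descriptions of fruiting or mating proteins summed to 704 to 1036 CPM in SHT, 1797 to 2073 CPM in MHT and 6257 to 9833 CPM in CK. Most of this sum in every library came from gene_18486, gene_5083, gene_22549 and gene_7883, described below, so it does not stand for the 22 as a class.

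Unigenes are called differentially expressed genes (DEGs) where edgeR's quasi-likelihood test between SHT and MHT gave an adjusted p under 0.05 with a log2 fold change beyond 1 in either direction. Log2 fold changes are given ± their standard error, SHT over MHT. There were 736 such DEGs, 5.65% of the unigenes tested, of which 363 (2.79%) were higher and 373 (2.87%) were lower in SHT. Without scaling factors the median log2 fold change of all tested unigenes moved to 0.12, against -0.0023 with them, and the split was 595 higher and 286 lower. The libraries of the heat groups did not overlap in 705 of the 736 DEGs, and in 27.9% of all tested unigenes. Most changes were moderate, with a median log2 fold change of 1.43 among the higher DEGs and -1.35 among the lower ones, and only 56 higher and 53 lower DEGs changed by more than 2 log2 units. The median mean level over the 6 heat libraries was 21.2 CPM for the higher DEGs, 38.6 CPM for the lower ones and 29.5 CPM for all tested unigenes. In bulk mycelium, fewer cells of a kind and less RNA per cell cannot be told apart.

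At any fold, 1269 unigenes (9.75%) had an adjusted p under 0.05. The number of DEGs depended on which libraries were used. It was 278 without SHT replicate 3, 317 without MHT replicate 1, 401 without MHT replicate 2 and 457 without SHT replicate 1. It was 1034 (539 higher, 495 lower) without SHT replicate 2 and 1428 (651 higher, 777 lower) without MHT replicate 3, the libraries that stood apart. With both of these left out it was 1549 (11.9% of those tested), of which 780 were higher (5.99%) and 769 lower (5.91%), and 690 of the 736 DEGs were among them. This last fit was chosen after the data were seen and leaves out the SHT and MHT libraries nearest to each other. Calls gained in it are therefore no independent support for a change. Counts for function lists in these fits are to be read beside these totals over all 13018 tested unigenes. A set of 230 DEGs (1.77% of those tested) had no overlap between the SHT and MHT libraries and kept call and direction in every fit with 1 of the 9 libraries left out. These stable DEGs comprised 89 that rose (0.684%) and 141 that fell (1.08%). For the rest of the DEGs the call was lost in at least 1 such fit or the groups overlapped.

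**Figure D1:**
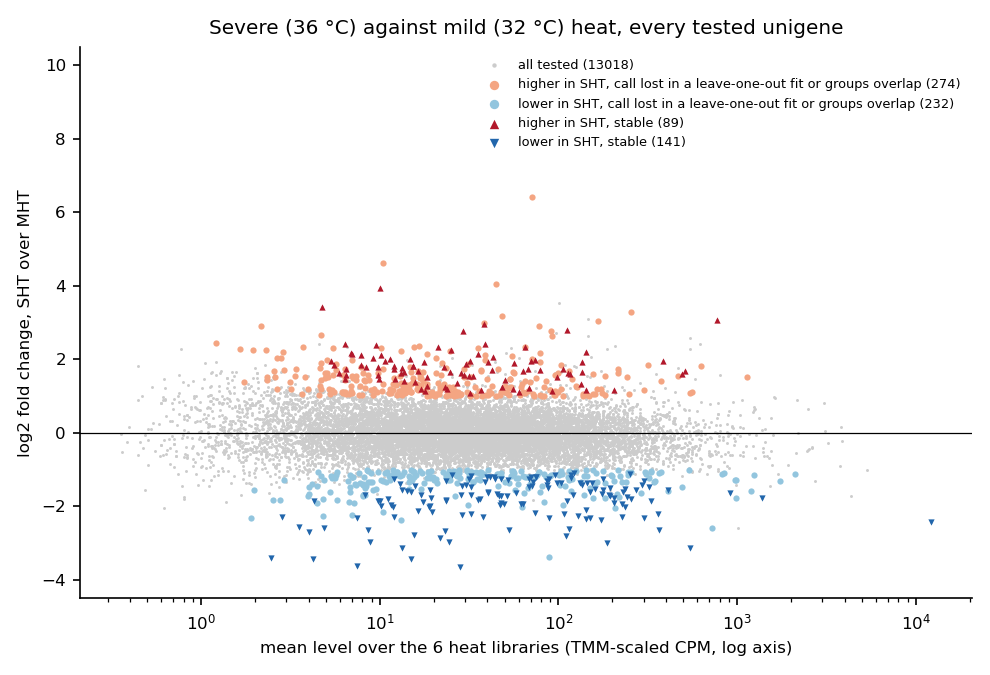
Log2 fold change of SHT over MHT (y axis) against the mean level over the 6 heat libraries in CPM (x axis, log scale), 1 point per tested unigene. The 89 stable higher DEGs (dark red) and the 141 stable lower DEGs (dark blue) spread over the whole range of levels, and most DEGs lie within 2 log2 units of 0.

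For most DEGs the level at 25 °C lay nearer to that at 32 °C than to that at 36 °C, or beyond it on the same side. Among the 373 lower DEGs, the CK mean was above both heat groups in 208 (55.8%), between them and nearer to MHT in 96, between them and nearer to SHT in 42, and below both in 27. Among the 363 higher DEGs, it was below both in 177 (48.8%), between them and nearer to MHT in 121, between them and nearer to SHT in 48, and above both in 17. With 1 library left out in turn, the share of lower DEGs with CK on top ranged from 48.6% (without MHT replicate 3) to 59.7% (without SHT replicate 3), and the share of higher DEGs with CK at the bottom from 38.5% (without MHT replicate 2) to 54.9% (without CK replicate 2). Without scaling factors these shares were 49.3% and 56.3%. These places are a description, since the MHT libraries enter both the choice of the DEGs and the placement.

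**Figure D2:**
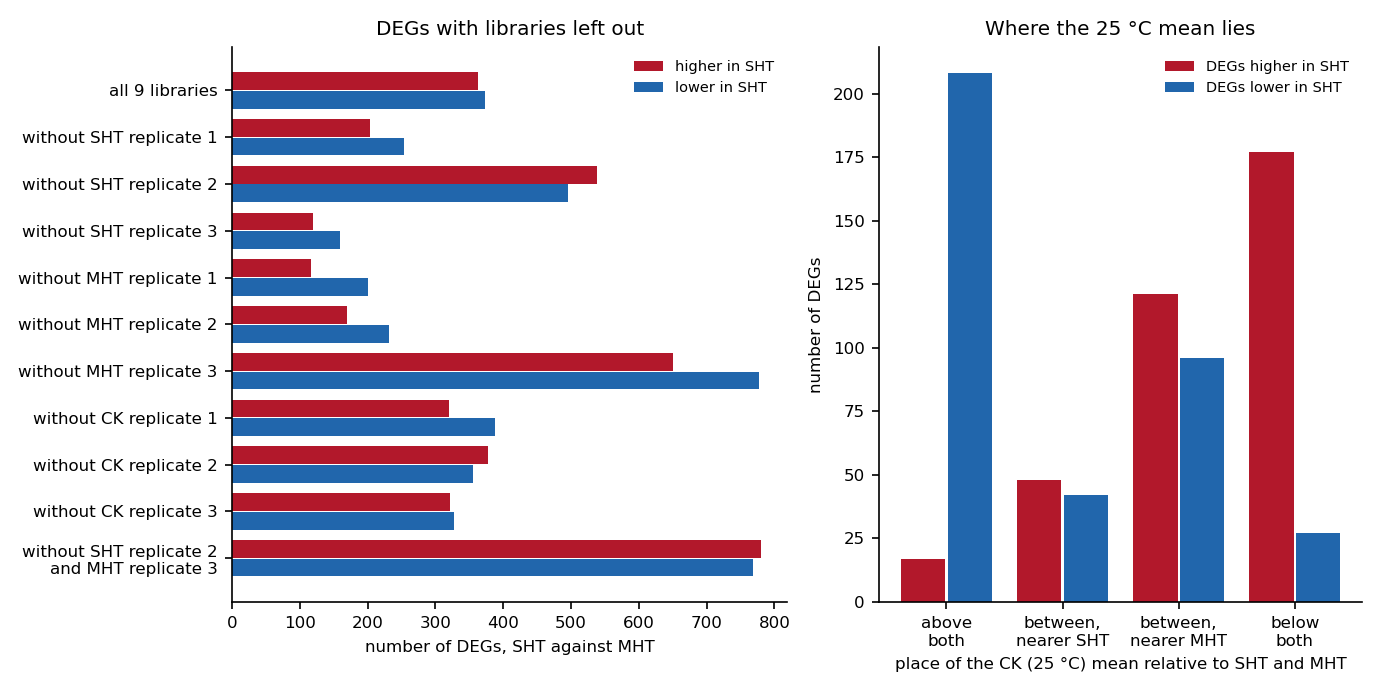
Left: number of DEGs higher (red) and lower (blue) in SHT with all 9 libraries and with the named libraries left out; the totals range from 278 without SHT replicate 3 to 1549 without both SHT replicate 2 and MHT replicate 3. Right: number of DEGs by the place of the CK mean relative to SHT and MHT; of the lower DEGs 208 have CK above both, and of the higher DEGs 177 have CK below both.

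Among the stable DEGs with a described function, a neighbouring pair of pore-forming proteins had some of the largest falls. gene_3547, described as pleurotolysin, a protein that oyster mushrooms use to make pores in membranes, was at 69.01, 195 and 36.3 CPM in SHT, against 583, 601 and 703 CPM in MHT (log2 fold change -2.65 ± 0.49, adjusted p = 0.00935). gene_3546, described as erylysin B, a pore-forming protein of a related oyster mushroom, was at 19.6, 53.4 and 9.997 CPM in SHT, against 183, 198 and 201 CPM in MHT (log2 fold change -2.81 ± 0.46, adjusted p = 0.00607). Both were highest in CK, at 1905, 1173 and 1507 CPM for gene_3547 and 514, 367 and 491 CPM for gene_3546, with MHT between CK and SHT. SHT replicate 2 was the highest of the SHT libraries in both, and without it the log2 fold changes were -3.58 and -3.70.

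The list of hydrophobins, cerato-platanins and other secreted surface proteins had 3 DEGs among 10 tested members, and all 3 were lower, against 2.87% of all tested unigenes lower in SHT. Besides pleurotolysin these were gene_22549, hydrophobin 3, and gene_5083, a cerato-platanin, a small secreted protein found on hyphal surfaces. Hydrophobin 3 was at 81.3, 96.99 and 81.3 CPM in SHT, against 308, 214 and 447 CPM in MHT, with no overlap between the groups. The cerato-platanin was at 176, 336 and 106 CPM in SHT, against 599.6, 696 and 561 CPM in MHT, a call lost without SHT replicate 1 (-1.50), SHT replicate 3 (-1.28), MHT replicate 1 (-1.61) or MHT replicate 2 (-1.50). The summed level of the 10 tested members was 351 to 787 CPM in SHT, 1573 to 1860.1 CPM in MHT and 3235 to 4750.1 CPM in CK, while the median log2 fold change over its members was -0.11, or 0.01 without scaling factors. Most of this sum came from the 3 DEGs in every library. Of the 10 members, 4 had a positive log2 fold change, up to 1.57. All SHT libraries lay above all MHT libraries in 3 members and below them in 3, against 15.4% and 12.6% of all tested unigenes. Without both SHT replicate 2 and MHT replicate 3 the log2 fold change of the cerato-platanin was -2.21.

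In the list of pheromone receptors and mating proteins 3 of 17 tested members fell, 17.6% against 2.87% of all tested unigenes lower in SHT. The median log2 fold change of the list was -0.066, or 0.067 without scaling factors. The pheromone receptor gene_18486 of the STE3 type was at 196, 226 and 206 CPM in SHT, against 719, 721 and 398 CPM in MHT and 5913, 3469 and 4172 CPM in CK. MHT replicate 3 was the lowest MHT library but still above all SHT libraries. gene_7883, described as the same type of receptor, was at 36.96, 40.5 and 26.5 CPM in SHT, against 89.8, 88.9 and 62.7 CPM in MHT and 631, 353 and 461 CPM in CK. Its call was lost without SHT replicate 3 (-1.06), MHT replicate 1 (-1.13) or MHT replicate 2 (-1.14). The log2 fold changes of MHT over CK, -2.88 for gene_18486 and -2.58 for gene_7883, were larger than those of SHT over MHT, -1.55 and -1.21. gene_6918, a homeobox protein, the protein class that includes mating-type regulators of mushrooms, was at 3.07, 3.79 and 5.92 CPM in SHT, against 16.3, 17.9 and 12.1 CPM in MHT (log2 fold change -1.86 ± 0.31, adjusted p = 0.00504). None of the 17 was called higher in edgeR or in DESeq2 with all libraries, although 7 had a positive log2 fold change, and 1 was called higher without SHT replicate 2.

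The longest run of DEGs with consecutive identifiers covered fatty acid synthase. The 7 unigenes gene_18225 to gene_18231 were all lower in SHT, with log2 fold changes from -1.88 to -1.16. In these, 3 were described as the alpha subunit of fatty acid synthetase, the large enzyme that builds the chains of membrane lipids, 2 as 3-oxoacyl-[acyl-carrier-protein] synthase, its condensing activity, and 2 had no described function. gene_18228 of the alpha subunit was at 131, 91.7 and 119 CPM in SHT, against 518, 463 and 209 CPM in MHT and 359, 411 and 529 CPM in CK (log2 fold change -1.80 ± 0.30, adjusted p = 0.00525). gene_18230, described alike, was at 142, 147 and 125 CPM in SHT, against 486, 418 and 304 CPM in MHT and 346, 444 and 464 CPM in CK (log2 fold change -1.55 ± 0.21, adjusted p = 0.00218). SHT was thus below both other groups, while MHT replicates 1 and 2 were in or near the range of CK and MHT replicate 3 was lower. The calls of gene_18225 and gene_18226 did not hold when MHT replicate 1, MHT replicate 2 or SHT replicate 3 was left out, with log2 fold changes of -1.57, -1.51 and -1.76 for gene_18225 and -1.63, -1.66 and -1.94 for gene_18226, and the call of gene_18231 was lost without SHT replicate 3 (-1.02). Neighbouring unigenes of this kind can be pieces of 1 gene model, so they are not independent readings.

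In the whole list of fatty acid and lipid metabolism, 3 of 74 tested members rose and 3 fell, 8.11% against 5.65% of all tested unigenes. The number that rose was 0 without SHT replicate 3 or MHT replicate 1 or 2 and 7 without SHT replicate 2, and the number that fell 6 without SHT replicate 2. With both of the libraries that stood apart left out, 8 rose and 4 fell, against 5.99% and 5.91% of all tested unigenes. The 3 that fell with all libraries were the alpha subunit pieces. The 3 that rose were 2 carnitine acetyltransferases, which carry acetyl units between cell compartments, and a thiolase, the last enzyme of a round of fatty acid breakdown. The acetyltransferase gene_12663 was at 397, 123.1 and 463 CPM in SHT, against 87.1, 85.9 and 142 CPM in MHT (log2 fold change 1.64). The mitochondrial form gene_12665 was at 83.3, 19.3 and 86.8 CPM in SHT, against 11.7, 14.4 and 17.9 CPM in MHT (log2 fold change 2.11). SHT replicate 2 was far below the other SHT libraries in both, and for gene_12663 it lay below MHT replicate 3. The call of gene_12663 was lost without SHT replicate 1 (1.48), SHT replicate 3 (1.31), MHT replicate 1 (1.53) or MHT replicate 2 (1.52) and, at 1.60, in a fit of the heat libraries alone. That of gene_12665 was lost without SHT replicate 1 (1.85), SHT replicate 3 (1.81), MHT replicate 1 (1.97), MHT replicate 2 (2.10) or MHT replicate 3 (2.27). Without both SHT replicate 2 and MHT replicate 3 the log2 fold changes were 2.30 for gene_12663 and 2.69 for gene_12665. The thiolase gene_7517 was at 514, 243 and 499 CPM in SHT, against 144, 166 and 247 CPM in MHT, where SHT replicate 2 and MHT replicate 3 overlapped, a call lost without SHT replicate 1 (0.99), SHT replicate 3 (1.03), MHT replicate 1 (1.02) or MHT replicate 2 (1.10) and, at 1.14, in a fit of the heat libraries alone.

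In the ergosterol pathway, which makes the main sterol of fungal membranes, 1 of 15 tested members passed, 6.67% against 5.65% of all tested unigenes. This was gene_4106, described as RNA polymerase C-22 sterol desaturase, of which the desaturase is a late enzyme of the pathway, at 45.5, 44.3 and 38.5 CPM in SHT, against 111, 106 and 78.4 CPM in MHT and 61.8, 62.1 and 71.2 CPM in CK (log2 fold change -1.20 ± 0.18, adjusted p = 0.00304). Its neighbour gene_4107, described only as a cytochrome P450, the enzyme class to which the C-22 sterol desaturase of yeast belongs, was at 151, 174 and 147 CPM in SHT, against 385, 339 and 305 CPM in MHT and 186, 225 and 216 CPM in CK. Both were highest in MHT, with no overlap between MHT and either other group. Without scaling factors gene_4107 fell just short of the fold threshold.

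**Figure D3:**
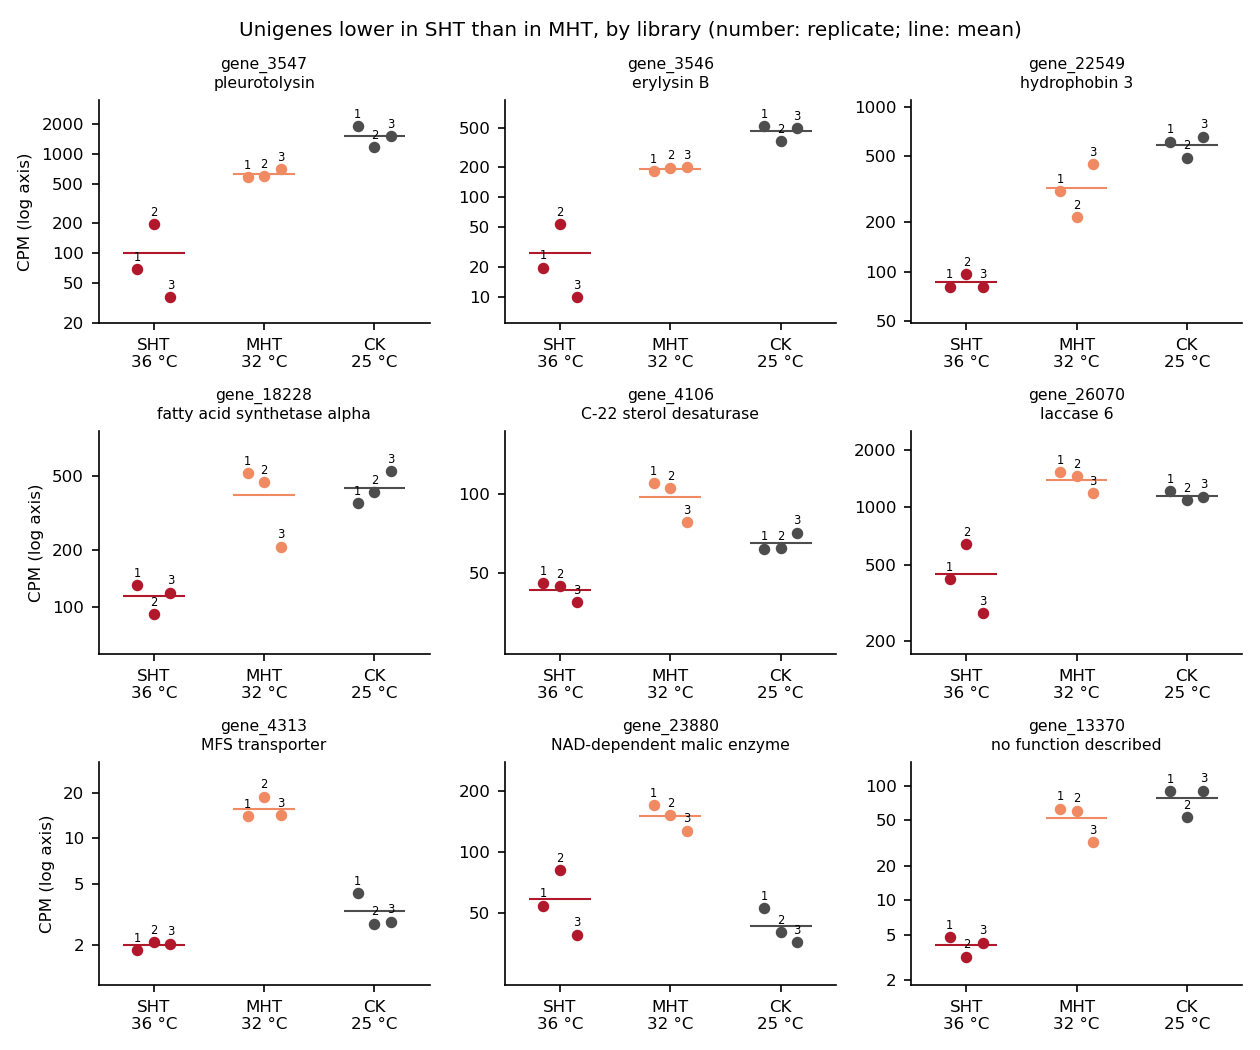
Level in CPM (y axes, log scale) of 9 unigenes that were lower in SHT, 1 point per library with its replicate number and a line at the group mean, for SHT, MHT and CK. In all 9 the SHT libraries lie below the MHT libraries; pleurotolysin, erylysin B and hydrophobin 3 are highest in CK, and the MFS transporter, the malic enzyme and the sterol desaturase are highest in MHT.

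A group of other unigenes was high at 32 °C alone. A neighbouring pair described as transporters of the major facilitator superfamily (MFS), which move small molecules across membranes, had low levels in both SHT and CK. gene_4313 was at 1.84, 2.08 and 2.04 CPM in SHT, against 14.02, 18.8 and 14.3 CPM in MHT and 4.39, 2.75 and 2.84 CPM in CK (log2 fold change -2.97 ± 0.29, adjusted p = 0.000413). gene_4314 was at 0.613, 0.947 and 0.555 CPM in SHT, against 6.93, 7.40 and 8.84 CPM in MHT and 1.46, 1.48 and 2.18 CPM in CK (log2 fold change -3.42 ± 0.36, adjusted p = 0.00064). The values of gene_4314 in SHT rest on 3 to 5 reads per library, too few to order SHT and CK. gene_8567, a methyltransferase that uses S-adenosyl methionine, was at 11.8, 23.7 and 8.52 CPM in SHT, against 98.2, 61.7 and 113 CPM in MHT and 36.6, 25.2 and 33.6 CPM in CK (log2 fold change -2.63 ± 0.35, adjusted p = 0.00218). MHT replicate 2 was the lowest of its group and SHT replicate 2 the highest of its own. gene_23880, an NAD-dependent malic enzyme, which turns malate into pyruvate, was at 54.3, 81.3 and 39.1 CPM in SHT, against 169.9, 152 and 127 CPM in MHT and 52.7, 40.3 and 35.8 CPM in CK (log2 fold change -1.36 ± 0.25, adjusted p = 0.00789). gene_26670, an F-box protein, of the class that selects proteins for ubiquitin tagging, was at 41.4, 38.8 and 28.5 CPM in SHT, against 115, 105 and 79.8 CPM in MHT and 35.7, 34.7 and 32.3 CPM in CK (log2 fold change -1.46 ± 0.20, adjusted p = 0.00218). In all of these the MHT libraries lay above every SHT and every CK library.

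Enzymes of lignin breakdown were called in both directions: of 34 tested members 1 rose and 2 fell, 8.82% against 5.65% of all tested unigenes. The falls numbered 1 without SHT replicate 1 or 3 or MHT replicate 1 or 2 and 5 without SHT replicate 2, and the rises 0 without SHT replicate 1 or 3 or MHT replicate 1 or 2 and 3 without SHT replicate 2. Without both SHT replicate 2 and MHT replicate 3 there were 3 rises and 7 falls, while 5.99% of all tested unigenes rose and 5.91% fell. Laccase 6, gene_26070, one of the copper enzymes that oxidise phenols, was at 419, 642 and 279 CPM in SHT, against 1528, 1448 and 1184 CPM in MHT and 1210.4, 1088 and 1137 CPM in CK (log2 fold change -1.63 ± 0.28, adjusted p = 0.00525). The ranges of MHT and CK overlapped, and SHT lay below both. The heme peroxidase gene_22356 was at 104.3, 249.7 and 67.4 CPM in SHT, against 523, 388 and 398 CPM in MHT, a call lost without SHT replicate 1 (-1.47), SHT replicate 3 (-1.31), MHT replicate 1 (-1.48) or MHT replicate 2 (-1.72) and, at -1.65, in a fit of the heat libraries alone. Without SHT replicate 2 its log2 fold change was -2.35. The member that rose was gene_17947, another laccase, at 11.2, 5.68 and 7.41 CPM in SHT, against 1.48, 1.26 and 1.004 CPM in MHT and 0.879, 7.41 and 0.437 CPM in CK, values that rest on few reads in MHT, and its call was lost without SHT replicate 1 (2.34), SHT replicate 3 (2.72), MHT replicate 1 (2.81), MHT replicate 2 (2.66) or MHT replicate 3 (2.55). The summed level of the list was 5267 to 8288 CPM in SHT, 11648 to 15032 CPM in MHT and 4933 to 6188 CPM in CK. Most of that difference lay in gene_422, a copper radical oxidase, an enzyme that makes hydrogen peroxide, at 2291, 2701 and 1086 CPM in SHT, against 5400.4, 9060.0 and 5524 CPM in MHT and 199, 884 and 274 CPM in CK, which did not pass the test (log2 fold change -1.72 ± 0.53, adjusted p = 0.0635). The phenylalanine ammonia lyase gene_14393, which opens the phenylpropanoid pathway, was at 583, 763 and 346 CPM in SHT, against 1717, 997 and 1417 CPM in MHT and 126, 118 and 105 CPM in CK. Its call was lost without SHT replicate 1 (-1.32), SHT replicate 3 (-1.04) or MHT replicate 1 (-1.10) and, at -1.31, in a fit of the heat libraries alone. In both gene_422 and gene_14393 every SHT and MHT library lay above every CK library.

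In cell division, 6 of 74 tested members of the list of cell cycle, mitosis and cytoskeleton fell and 1 rose, 9.46% against 5.65% of all tested unigenes. The number that fell was 3 without SHT replicate 3 or MHT replicate 1 and 9 without MHT replicate 3. Those that fell with all libraries included 3 kinesins, motor proteins that move along microtubules. The kinesin gene_2738, described as kip2, was at 7.21, 9.28 and 4.999 CPM in SHT, against 20.6, 15.9 and 19.9 CPM in MHT (log2 fold change -1.39 ± 0.26, adjusted p = 0.00789). The kinesin gene_4168 was at 1.84, 1.89 and 1.85 CPM in SHT, against 6.76, 5.77 and 7.63 CPM in MHT (log2 fold change -1.84 ± 0.33, adjusted p = 0.00723). The third, gene_2737, next to gene_2738, was at 15.03, 18.4 and 10.7 CPM in SHT, against 35.1, 32.5 and 29.5 CPM in MHT (log2 fold change -1.14), which was no DEG without SHT replicate 3 (-0.96) or MHT replicate 1 (-1.07). gene_21713, a cell cycle kinase described as cdc5/MSD2, which drives exit from mitosis in yeast, was at 7.82, 4.17 and 9.26 CPM in SHT, against 25.7, 23.4 and 14.7 CPM in MHT (log2 fold change -1.58 ± 0.31, adjusted p = 0.00921). gene_3585, a dual-specificity kinase for the doubling of the spindle pole body, changed by -1.03 on the log2 scale and lost its call without SHT replicate 3 (-1.03), MHT replicate 1 (-0.94) or MHT replicate 2 (-0.94) and, without scaling factors, at -0.90. In all 5 of these unigenes the SHT libraries lay below all MHT libraries. The sixth, gene_25128, described as a cell division cycle protein, was at 18.4, 9.47 and 17.6 CPM in SHT, against 48.01, 51.8 and 16.9 CPM in MHT, with MHT replicate 3 within the range of SHT. The study's product tables give gene_25128 as a guanine nucleotide exchange factor bound to membranes. Its call was lost without any 1 library other than MHT replicate 3 (log2 fold changes from -1.71 to -1.11 over all leave-outs), without the filter on zero counts (-1.36), in a fit of the heat libraries alone (-1.40) and without scaling factors (-1.23). The member that rose was gene_26632, whose description names an actin-like ATPase domain, a fold that chaperones and sugar kinases also share, at 121, 51.5 and 141 CPM in SHT, against 26.2, 31.7 and 35.8 CPM in MHT.

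Among enzymes for DNA copying, the list of DNA replication and repair had 1 DEG among 76 tested members, 1.32% against 5.65% of all tested unigenes, and it was lower. Without SHT replicate 2 this list had 3 lower DEGs and 1 higher. It was gene_12197, an MCM protein of the helicase that opens DNA for replication, at 7.67, 7.58 and 5.92 CPM in SHT, against 19.1, 13.7 and 17.9 CPM in MHT (log2 fold change -1.26 ± 0.22, adjusted p = 0.0066). gene_1102, the small subunit of the reductase that makes the building blocks of DNA, a unigene in no list, was at 56.6, 102 and 64.8 CPM in SHT, against 219, 187 and 274 CPM in MHT, with no overlap.

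Protein kinases fell in 5 of 108 tested members, 4.63% against 2.87% of all unigenes lower in SHT, and none rose in edgeR or in DESeq2. The count was 3 without SHT replicate 3 or MHT replicate 1 or 2, 10 without MHT replicate 3, and 9 with both outlying libraries left out, a fit in which 5.91% of all tested unigenes were lower. These 5 include the 2 kinases of cell division just named and 2 hybrid histidine kinases, gene_13725 and gene_13727, sensors of the kind that reads osmotic stress in yeast. gene_13725 was at 43.9, 78.99 and 29.3 CPM in SHT, against 272, 235 and 244 CPM in MHT. gene_13727 was at 54.4, 80.1 and 34.8 CPM in SHT, against 349, 293 and 228 CPM in MHT. The fifth, gene_4205 of the CMGC group, which includes cyclin-dependent kinases, had a log2 fold change of -1.09 and lost its call without SHT replicate 3 (-1.05), MHT replicate 1 (-0.90) or MHT replicate 2 (-1.11) and without scaling factors (-0.96). The histidine kinases are the first and the third of 5 consecutive unigenes, gene_13725 to gene_13729, that were all lower in SHT with log2 fold changes from -2.60 to -2.25. Transcription factors had 1 lower DEG among 60, 1.67% against 2.87% of all unigenes lower in SHT. This was the homeobox protein above, which is also in the list of mating genes. The list had 6 without MHT replicate 3, and 7 with SHT replicate 2 left out as well, a fit in which 5.91% of all tested unigenes were lower. The most abundant transcription factor, gene_3921, a MADS box protein, was at 238, 251 and 191 CPM in SHT, against 487, 384 and 358 CPM in MHT: all SHT libraries were lower, but the change was short of the fold threshold (log2 fold change -0.85 ± 0.19, adjusted p = 0.0162). Its log2 fold change was -1.03, a call, with SHT replicate 2 and MHT replicate 3 both left out.

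Other falls among the stable DEGs touched varied enzymes. The FAD dependent oxidoreductase gene_9785 was at 107, 107 and 92.6 CPM in SHT, against 340.0, 304 and 218 CPM in MHT and 1012, 569.9 and 669 CPM in CK. Its neighbour gene_9786, described alike, was at 103, 118 and 93.9 CPM in SHT, against 289.7, 255 and 208 CPM in MHT and 851, 501 and 623 CPM in CK. In both, CK was the highest group and SHT the lowest, with no overlap. The cytochrome P450 gene_2329 was at 18.3, 28.04 and 14.1 CPM in SHT, against 66.99, 71.4 and 86.8 CPM in MHT and 203, 119 and 141 CPM in CK (log2 fold change -1.90 ± 0.27, adjusted p = 0.00254). gene_339, an ankyrin, a protein with repeats that bind other proteins, had a log2 fold change of -1.73, and gene_3557, a Tcp11 domain protein, had -1.73. The neighbouring pair gene_26091 and gene_26092, transferases that use pyridoxal phosphate, had -1.19 and -1.46. gene_20293, a glycoside hydrolase of family 31, was at 21.6, 23.5 and 15.2 CPM in SHT, against 49.99, 44.2 and 41.2 CPM in MHT. Of the cytosolic ribosome and translation factors, only gene_807, a protein of the small subunit, fell among 43 tested members (2 DEGs in all, 4.65% against 5.65% of all tested unigenes), to 79.2 ± 7.63 CPM in SHT, against 167 ± 7.92 CPM in MHT (SD, n = 3 each), and without scaling factors its log2 fold change of -0.95 was no call. Without SHT replicate 3 a second member was called lower.

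The member of that list that rose was among the largest rises with a described function. gene_5871, described as elongation factor 2, which moves the ribosome along the mRNA, was at 217, 83.9 and 286 CPM in SHT, against 33.5, 25.6 and 25.7 CPM in MHT and 38.96, 121 and 79.04 CPM in CK (log2 fold change 2.79 ± 0.47, adjusted p = 0.00678). Its neighbour gene_5870, with no described function, was at 71.9, 34.5 and 97.9 CPM in SHT, against 7.75, 7.58 and 10.8 CPM in MHT and 9.96, 39.4 and 20.7 CPM in CK (log2 fold change 2.97 ± 0.48, adjusted p = 0.00591). In both, SHT replicate 2 was lowest of the SHT libraries and still above all MHT libraries, and the CK libraries lay above the MHT mean. No other of the 43 tested members of the list was called higher.

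Rises in central carbon metabolism were led by gene_315, fructose-bisphosphate aldolase 1, which splits or joins hexose phosphates in glycolysis and its reverse, at 604, 331 and 906 CPM in SHT, against 118, 145 and 208 CPM in MHT and 147, 268 and 177 CPM in CK (log2 fold change 1.97 ± 0.36, adjusted p = 0.00811). Of 43 tested members of the list of the TCA cycle, glycolysis and pentose phosphate pathway, 4 were called higher and none lower, 9.30% against 2.79% of all tested unigenes higher in SHT. The others were gene_21556, the E1 component of 2-oxoglutarate dehydrogenase of the TCA cycle (1.22), gene_7938, an aldolase (1.02), and gene_686, glucose-6-phosphate dehydrogenase, which feeds the pentose phosphate pathway (1.01). The call of gene_21556 was lost without SHT replicate 3 (1.11) or MHT replicate 1 (1.16), that of gene_7938 without SHT replicate 3 (0.85), MHT replicate 1 (1.02), MHT replicate 2 (0.98) or CK replicate 1 (0.99), and that of gene_686 without SHT replicate 1 (1.09), SHT replicate 3 (0.81), MHT replicate 1 (0.84), MHT replicate 2 (1.05) or CK replicate 1 (0.98). The calls of gene_7938 and gene_686 were also lost in a fit of the heat libraries alone, at 0.99 and 0.98. The number of rises in this list was 1 without SHT replicate 3 or MHT replicate 1. Its median log2 fold change was 0.17, and 26 of the 43 members had a positive one. At any fold, 4 members were higher and 2 lower at an adjusted p under 0.05, against 627 and 642 of all 13018 tested unigenes. With both SHT replicate 2 and MHT replicate 3 left out, 6 members were higher and 2 lower, against 5.99% and 5.91% of all tested unigenes.

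The neighbouring pair of aldehyde dehydrogenases gene_15081 (ald) and gene_15082 (ald5), which oxidise aldehydes to acids, rose together. gene_15081 was at 775, 521 and 1039.9 CPM in SHT, against 187, 239 and 299.7 CPM in MHT and 193, 332 and 314 CPM in CK (log2 fold change 1.69 ± 0.29, adjusted p = 0.00598). gene_15082 was at 762, 490.4 and 978 CPM in SHT, against 204, 245 and 285 CPM in MHT and 256, 392 and 334 CPM in CK (log2 fold change 1.60 ± 0.26, adjusted p = 0.00493). Every SHT library lay above every MHT and CK library in both. Glycerol kinase, which brings glycerol into metabolism, was also represented by neighbours: gene_15390 was at 13.3, 13.1 and 10.7 CPM in SHT, against 4.29, 2.53 and 3.42 CPM in MHT (log2 fold change 1.85 ± 0.30, adjusted p = 0.00493). gene_15391 was at 22.4, 18.8 and 28.1 CPM in SHT, against 7.92, 12.99 and 6.43 CPM in MHT, a call lost without SHT replicate 3 (1.16) or MHT replicate 1 (1.24). A pair of neighbours described as arginase, which splits arginine into ornithine and urea, was higher as well. gene_24708 was at 429.6, 134 and 437 CPM in SHT, against 78.5, 103.9 and 118 CPM in MHT. gene_24709 was at 223, 76.1 and 226 CPM in SHT, against 45.04, 54.5 and 63.3 CPM in MHT. SHT replicate 2 lay near the MHT libraries in both. Their calls were lost without SHT replicate 1, SHT replicate 3, MHT replicate 1 or MHT replicate 2, with log2 fold changes from 1.49 to 1.77 for gene_24708 and from 1.46 to 1.69 for gene_24709.

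**Figure D4:**
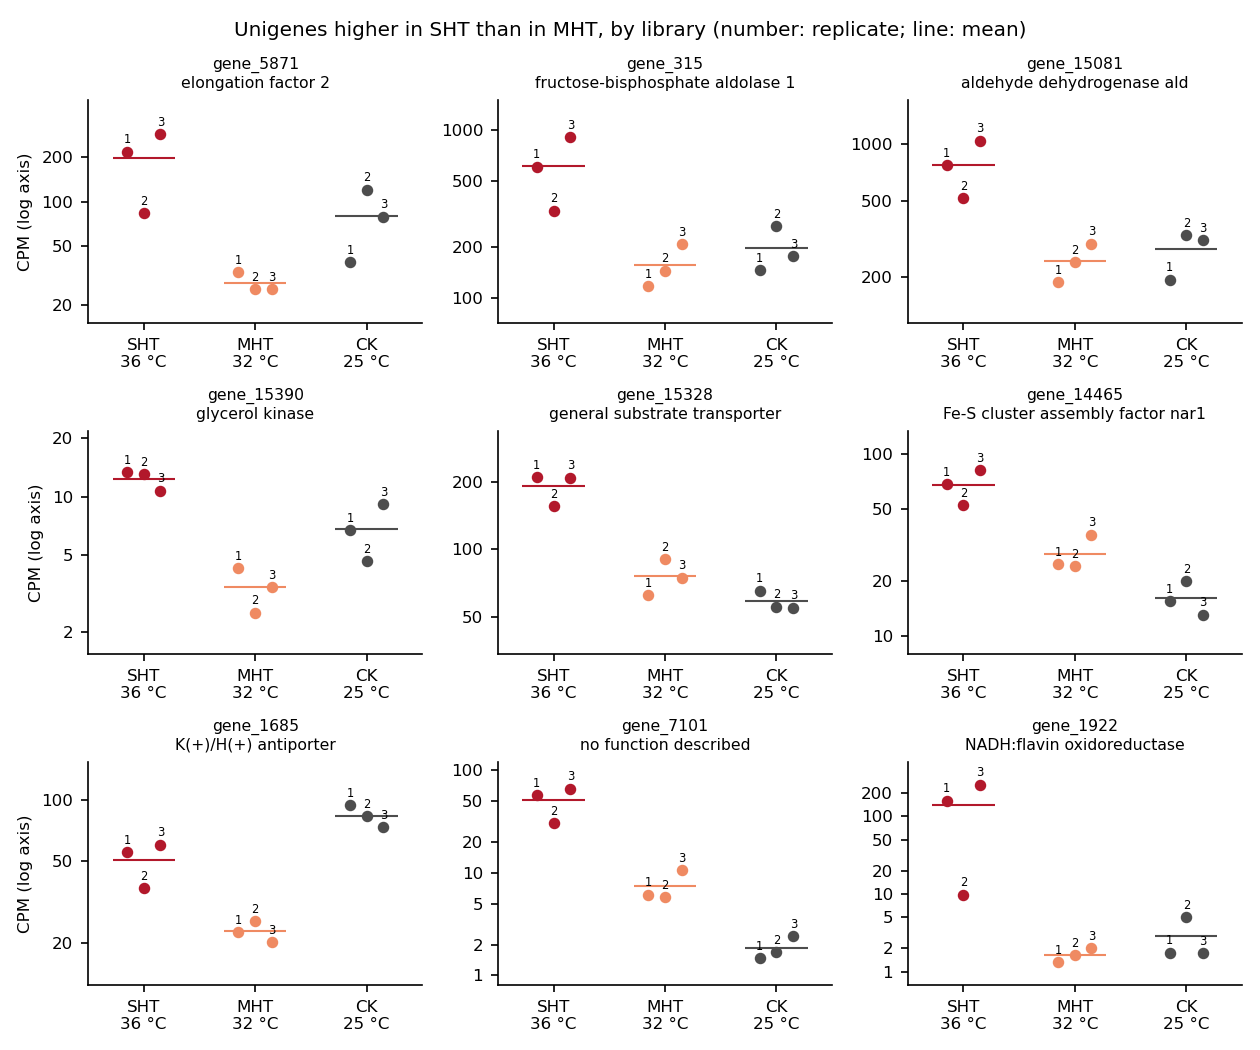
Level in CPM (y axes, log scale) of 9 unigenes that were higher in SHT, 1 point per library with its replicate number and a line at the group mean, for SHT, MHT and CK. In all 9 the SHT libraries lie above the MHT libraries; SHT replicate 2 is the lowest SHT library in 8 of the panels, all but glycerol kinase, and the antiporter is highest in CK.

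Transporters moved in both directions. Of 49 tested MFS and sugar transporters 4 rose and 2 fell, 12.2% against 5.65% of all tested unigenes, the pair gene_4313 and gene_4314 being the 2 that fell. gene_15328, a general substrate transporter, was at 209, 156 and 208 CPM in SHT, against 62.7, 90.5 and 74.9 CPM in MHT and 65.6, 55.7 and 55.02 CPM in CK (log2 fold change 1.33 ± 0.19, adjusted p = 0.00256). The hexose transporter gene_16414 was at 39.9, 15.7 and 50.9 CPM in SHT, against 3.63, 9.92 and 7.43 CPM in MHT. The groups did not overlap in either. The other rises did not hold in every fit: the MFS transporter gene_21157 (log2 fold change 2.18) lost its call without SHT replicate 1 (2.12), SHT replicate 3 (1.67), MHT replicate 1 (1.98), MHT replicate 2 (2.17) or MHT replicate 3 (2.43), and gene_23465 (1.66) without SHT replicate 1 (1.71), SHT replicate 3 (1.19) or MHT replicate 1 (1.40) and in a fit of the heat libraries alone (1.62). Of 107 other transporters and channels, 2 rose and 1 fell, 2.80% against 5.65% of all tested unigenes. The rise that held in every fit was gene_1685, an antiporter that exchanges potassium for protons, at 55.5, 36.9 and 60.2 CPM in SHT, against 22.4, 25.4 and 20.1 CPM in MHT and 94.03, 83.04 and 73.6 CPM in CK (log2 fold change 1.17 ± 0.21, adjusted p = 0.00738): MHT was the lowest group and CK the highest. The other rise was gene_6946, an ATP-binding cassette transporter, a class that includes drug pumps, at 257, 121 and 269 CPM in SHT, against 100.97, 105 and 105 CPM in MHT, a call lost without SHT replicate 1 (0.90), SHT replicate 3 (0.86), MHT replicate 1 (1.04) or MHT replicate 2 (1.06) and in a fit of the heat libraries alone (1.01). The fall was gene_25536 of the TRKH superfamily of potassium transporters, at 13.8, 9.28 and 6.85 CPM in SHT, against 29.2, 17.3 and 15.5 CPM in MHT, a call lost without any 1 library other than SHT replicate 1 and MHT replicate 3 (log2 fold changes from -1.37 to -0.71 over all leave-outs), in a fit of the heat libraries alone (-1.08) and without scaling factors (-0.91). With both SHT replicate 2 and MHT replicate 3 left out, 12 of these other transporters were higher and 5 lower, against 5.99% and 5.91% of all tested unigenes. Their rises were 1 without SHT replicate 3 or MHT replicate 1 or 2 and 8 without SHT replicate 2, and their falls 0 without SHT replicate 3 or MHT replicate 1 or 2 or CK replicate 2 or 3 and 4 without MHT replicate 3. The rises among MFS and sugar transporters numbered 2 without SHT replicate 1 or 3 or MHT replicate 1.

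Carbohydrate-active enzymes for polysaccharide breakdown had 9 higher and 3 lower DEGs among 171 tested members, 7.02% against 5.65% of all tested unigenes. The stable rises were gene_6421, a carbohydrate esterase of family 1, a family that removes acid groups from plant cell wall sugars, and gene_331, described as a cellulase. gene_6421 was at 80.5, 28.4 and 63.7 CPM in SHT, against 12.9, 10.6 and 15.7 CPM in MHT. gene_331 was at 46.8, 37.3 and 47.6 CPM in SHT, against 21.6, 21.8 and 18.1 CPM in MHT and 8.50, 13.1 and 11.4 CPM in CK (log2 fold change 1.10 ± 0.20, adjusted p = 0.00774). A product table of the study gives gene_331 another name than the description in the count table, so its function is uncertain. The summed level of the list was 5907 to 6223 CPM in SHT, 6351 to 6456 CPM in MHT and 6417 to 6995 CPM in CK, with SHT below MHT although more of its members rose than fell. The number that rose was 2 without SHT replicate 3 and 14 without SHT replicate 2. Falls numbered 1 without SHT replicate 1 or 3 or MHT replicate 1 and 7 without MHT replicate 3. With both outlying libraries left out, 17 rose and 6 fell, while 5.99% of all tested unigenes rose and 5.91% fell.

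A few further rises stood out. gene_14465, nar1, a factor that inserts iron-sulfur clusters into cytosolic proteins, was at 68.6, 52.7 and 81.6 CPM in SHT, against 24.9, 24.3 and 36.2 CPM in MHT and 15.5, 20.1 and 13.1 CPM in CK (log2 fold change 1.25 ± 0.23, adjusted p = 0.0081). gene_14463, described as an iron hydrogenase, lies close to gene_14465 in the order of identifiers, and whether both are pieces of 1 gene model was not tested. It was at 16.1, 11.9 and 19.1 CPM in SHT, against 5.44, 8.84 and 7.84 CPM in MHT, a call lost without SHT replicate 1 (1.07), SHT replicate 3 (0.93), MHT replicate 1 (0.91) or MHT replicate 2 (1.25) and, at 1.06, in a fit of the heat libraries alone. gene_17102, an NAD(P)-binding protein, was at 76.2, 69.7 and 87.8 CPM in SHT, against 29.9, 39.7 and 31.9 CPM in MHT (log2 fold change 1.20 ± 0.18, adjusted p = 0.00297). The largest fold of all DEGs was that of gene_1922, an NADH:flavin oxidoreductase, a class of enzymes that use a flavin to reduce double bonds. It was at 159, 9.85 and 254 CPM in SHT, against 1.32, 1.62 and 2.01 CPM in MHT and 1.76, 5.08 and 1.75 CPM in CK, so that SHT replicate 2 was far below its group and still above all MHT libraries (log2 fold change 6.41 ± 1.17, adjusted p = 0.0156). Its call was lost without SHT replicate 1 (6.30), MHT replicate 1 (6.26) or MHT replicate 2 (6.40), and without SHT replicate 3 the log2 fold change was 5.67. The list of secondary metabolism and small-molecule methyltransferases, which holds this unigene, had 4 higher and 2 lower DEGs among 87 tested members, 6.90% against 5.65% of all tested unigenes. Its higher DEGs numbered 0 without SHT replicate 1 or MHT replicate 1 or 2 and 10 without SHT replicate 2, and its lower ones 1 without SHT replicate 1 or 3 or MHT replicate 1. The cytochrome P450 gene_9655 was at 199, 32.8 and 246 CPM in SHT, against 21.3, 26.9 and 28.1 CPM in MHT and 84.7, 95.5 and 124 CPM in CK, with SHT replicate 2 near MHT, and its call was lost without SHT replicate 1 (2.45), SHT replicate 3 (2.19), MHT replicate 1 (2.53), MHT replicate 2 (2.69) or MHT replicate 3 (2.73). Over the list of cytochrome P450 monooxygenases, 1 of 27 rose and 2 fell, 11.1% against 5.65% of all tested unigenes. The rises were 0 without SHT replicate 1 or 3 or MHT replicate 1 or 2, 2 without SHT replicate 2 or MHT replicate 3 or CK replicate 2, and 3 with both outlying libraries left out, against 5.99% of all tested unigenes.

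Amino acid synthesis had a median log2 fold change of 0.46 over 54 tested members, against -0.0023 over all tested unigenes, and 48 of the members had a positive log2 fold change. Other lists had medians of this kind: cytochrome P450 monooxygenases 0.48, the highest of the 40 lists, the mitochondrial ribosome 0.35, secondary metabolism 0.35, antioxidant enzymes 0.32 and mitochondrial chaperones 0.30. Of the members of amino acid synthesis 4 passed the test, all higher, 7.41% against 2.79% of all tested unigenes higher in SHT. This count was 0 without SHT replicate 3 or MHT replicate 1 or 2 and 10 without MHT replicate 3. They included gene_8839, anthranilate phosphoribosyltransferase of tryptophan synthesis, at 274, 154 and 312 CPM in SHT, against 103.8, 111 and 144 CPM in MHT, and gene_19906, phosphoserine aminotransferase of serine synthesis, at 144, 193 and 255 CPM in SHT, against 71.9, 91.4 and 131 CPM in MHT. Both calls were lost without several libraries: that of gene_8839 without SHT replicate 1 (0.95), SHT replicate 3 (0.84), MHT replicate 1 (0.95) or MHT replicate 2 (0.99), that of gene_19906 without SHT replicate 3 (0.78), MHT replicate 1 (0.83), MHT replicate 2 (0.96) or CK replicate 1 (0.98), and both in a fit of the heat libraries alone, at 1.01 and 0.98. The others were gene_17070, ornithine carbamoyltransferase of arginine synthesis (1.11), lost without SHT replicate 1 (1.20), SHT replicate 3 (0.97), MHT replicate 1 (1.04), MHT replicate 2 (0.96) or CK replicate 3 (1.11), and gene_24786, 2-isopropylmalate synthase of leucine synthesis (1.01), lost without SHT replicate 1 (0.95), SHT replicate 3 (0.74), MHT replicate 1 (0.91), MHT replicate 2 (0.86), CK replicate 1 (0.97), CK replicate 2 (1.01) or CK replicate 3 (1.01), without the filter on zero counts (1.01) and in a fit of the heat libraries alone (0.97). The summed level of the list was 4780.4, 3758 and 6015 CPM in SHT, against 3033, 3202 and 3874 CPM in MHT, so that SHT replicate 2 lay below MHT replicate 3. Without these libraries 12 members were higher, 1 was lower, and the median was 0.73, while 5.99% of all tested unigenes were higher and 5.91% lower.

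The list of thiamine, pantothenate and other cofactor synthesis had a median of 0.40 over 33 tested members and 2 higher DEGs, 6.06% against 2.79% of all tested unigenes. There were 0 without SHT replicate 3 or MHT replicate 1, 7 without MHT replicate 3 and 8 with SHT replicate 2 left out as well, a fit in which 5.99% of all tested unigenes were higher. The 2 with all libraries were gene_23979, uroporphyrin-III C-methyltransferase, which makes a precursor of siroheme, at 106, 81.5 and 163 CPM in SHT, against 41.2, 49.4 and 57.3 CPM in MHT, and gene_1672, a protein of molybdenum cofactor synthesis, at 15.8, 9.28 and 23.3 CPM in SHT, against 3.30, 6.13 and 5.02 CPM in MHT. The first call was lost without SHT replicate 3 (0.92), MHT replicate 1 (1.13) or MHT replicate 2 (1.24) and the second without SHT replicate 1 (1.75), SHT replicate 3 (1.38) or MHT replicate 1 (1.53). Of 34 tested aminoacyl-tRNA synthetases, which load amino acids onto tRNA, 2 rose, 5.88% against 2.79% of all tested unigenes. They were gene_21057 and gene_21058, neighbours described as arginyl-tRNA synthetase. The list had 0 without SHT replicate 1 or 3 or MHT replicate 1 or 2, and 4 with both outlying libraries left out, against 5.99% of all tested unigenes. They had log2 fold changes of 1.25 and 1.27, and their calls were lost without SHT replicate 1, SHT replicate 3, MHT replicate 1 or MHT replicate 2 (log2 fold changes from 0.96 to 1.28 for gene_21057 and from 1.10 to 1.20 for gene_21058), and that of gene_21057 also in a fit of the heat libraries alone (1.21). The most abundant synthetase, lysyl-tRNA synthetase gene_16058, was at 631, 638 and 677 CPM in SHT, against 387, 416 and 459.9 CPM in MHT and 231, 264 and 226 CPM in CK, above every MHT library but under the fold threshold (log2 fold change 0.62 ± 0.17, adjusted p = 0.0374).

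Few chaperones passed the test between the heat groups. Of 33 tested cytosolic and ER chaperones 1 rose, 3.03% against 2.79% of all unigenes higher in SHT, and of 15 mitochondrial chaperones and import proteins none passed in edgeR or in DESeq2, with 4 at an unadjusted p under 0.05 (against 3768 of all 13018 tested unigenes). The one that rose was gene_8668, a protein disulfide isomerase, which forms disulfide bonds in the ER, at 112, 51.1 and 98.3 CPM in SHT, against 44.7, 39.1 and 36.8 CPM in MHT, a call lost without SHT replicate 1 (0.88), SHT replicate 3 (1.01), MHT replicate 1 (1.20) or MHT replicate 2 (1.09) and, at 1.07, in a fit of the heat libraries alone. Without SHT replicate 2, 3 members of its list were higher, and without MHT replicate 3, 2 of the mitochondrial list. The chaperonin gene_19698, described as GroL, the type that folds proteins in the mitochondrion, is in no list and was at 2701, 2224 and 3537 CPM in SHT, against 1391, 1264 and 1922 CPM in MHT and 642, 965 and 769 CPM in CK, with no overlap of the heat groups (log2 fold change 0.89 ± 0.26, adjusted p = 0.0503). The 10 kDa heat shock protein gene_17118, the lid of that chaperonin, was at 98.8, 99.1 and 135 CPM in SHT, against 48.5, 51.6 and 90.4 CPM in MHT and 38.96, 38.98 and 31.2 CPM in CK (log2 fold change 0.81 ± 0.24, adjusted p = 0.0548). The heat shock protein 70 gene_6270 was at 967, 496 and 1204 CPM in SHT, against 519, 429 and 596 CPM in MHT and 245, 277 and 221 CPM in CK (log2 fold change 0.79 ± 0.28, adjusted p = 0.0912), with SHT replicate 2 below MHT replicates 1 and 3. These 3 did not pass. With both SHT replicate 2 and MHT replicate 3 left out their log2 fold changes were 1.22, 1.21 and 1.18, each a call. In that fit 6 members of the first list and 2 of the second were higher, against 5.99% of all tested unigenes. It leaves out the SHT and MHT libraries nearest to each other, chosen after the data were seen, so these calls are no independent support.

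Cell wall synthesis had the lowest median of the 40 function lists, -0.40 over 78 tested members, and 19 members had a positive log2 fold change. The summed level of the list was 8289, 7534 and 7263 CPM in SHT, against 12286, 11699 and 8194 CPM in MHT and 11179 to 13425 CPM in CK. MHT replicate 3 thus lay within the range of SHT. None of the members was called lower in edgeR, with 39 of both directions at an unadjusted p under 0.05 (against 3768 of all 13018 tested unigenes) and 1 lower in DESeq2. Without MHT replicate 3, 17 were called lower, against 777 of all 13018 tested unigenes. With SHT replicate 2 left out as well 11 were, against 5.91% of all tested unigenes. Chitin synthase 2, gene_23393, which makes the chitin of the wall, was at 577, 416 and 435 CPM in SHT, against 1079, 1168 and 481 CPM in MHT and 2361, 1460.0 and 1809 CPM in CK (log2 fold change -0.93 ± 0.32, adjusted p = 0.0783). The glucan synthase gene_12135 was at 306, 226 and 263 CPM in SHT, against 574, 494 and 286 CPM in MHT and 430.0, 465 and 438 CPM in CK (log2 fold change -0.77 ± 0.24, adjusted p = 0.0612). In both, MHT replicate 3 was far below the other MHT libraries, and without it and SHT replicate 2 their log2 fold changes were -1.16, a call, and -0.92, no call. The only DEG, 1.28% of the members against 5.65% of all tested unigenes, was higher in SHT: gene_5147, a glycosyltransferase of family 8, a family with glycogenin-like enzymes, at 17.5, 12.3 and 20.9 CPM in SHT, against 3.13, 4.69 and 2.21 CPM in MHT, a call lost without SHT replicate 3 (2.14) or MHT replicate 1 (2.27).

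**Figure D5:**
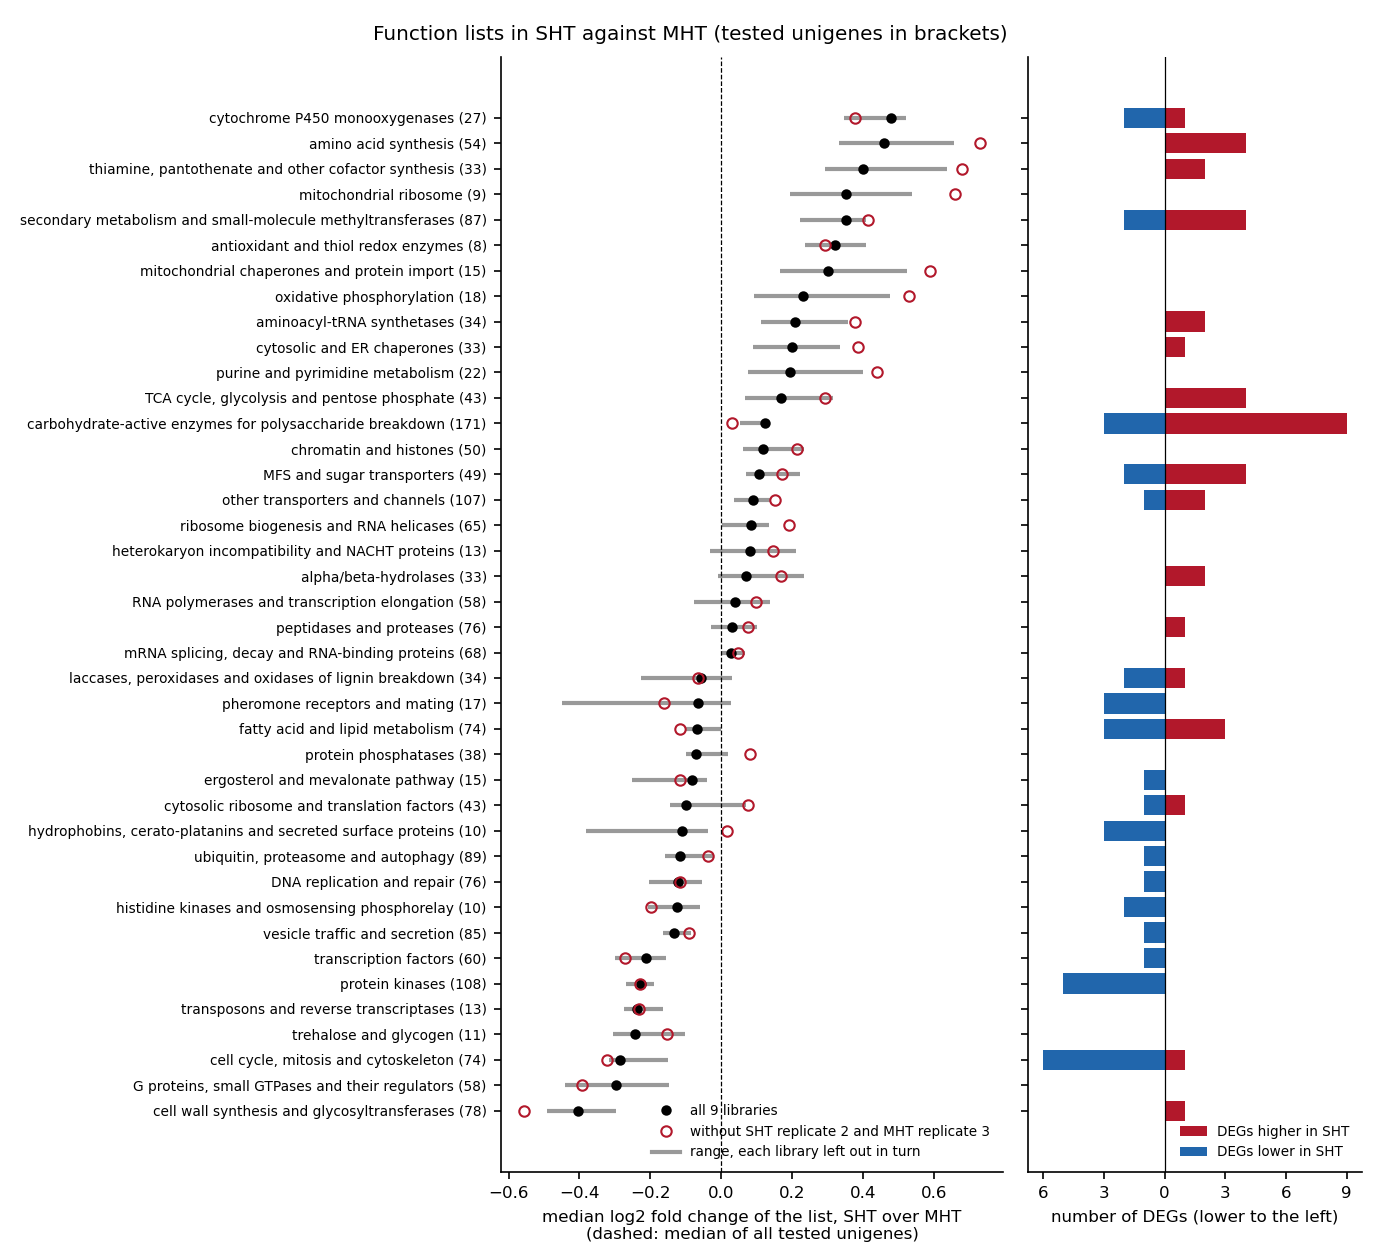
Left: median log2 fold change of SHT over MHT in each of 40 function lists (y axis, tested members in brackets), with all 9 libraries (black), without SHT replicate 2 and MHT replicate 3 (open red) and the range with 1 library left out in turn (grey bar). Right: number of DEGs higher (red) and lower (blue). Cytochrome P450 monooxygenases (highest median), amino acid synthesis, cofactor synthesis and secondary metabolism are among the lists above 0 in every fit shown. So are the mitochondrial ribosome, mitochondrial chaperones, oxidative phosphorylation and antioxidant enzymes. Cell wall synthesis, G proteins, cell cycle and protein kinases are among the lists below 0 in every fit shown. Most members of every list were not called.

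In further lists almost nothing passed. For the counts at an unadjusted p under 0.05 below, the background is 3768 of all 13018 tested unigenes. G proteins and their regulators, which relay signals from receptors, had a median of -0.30 over 58 tested members and no DEG in edgeR or in DESeq2, with 10 at an unadjusted p under 0.05. Ribosome biogenesis (65 tested) and mRNA splicing and decay (68 tested) had no DEG in either tool either, with 9 and 19 at an unadjusted p under 0.05. Vesicle traffic had 1 lower DEG among 85 (1.18%, against 2.87% of all tested unigenes), gene_16687, the clathrin heavy chain, which coats vesicles, at 25.00, 22.7 and 22.96 CPM in SHT, against 60.7, 60.1 and 28.7 CPM in MHT, with MHT replicate 3 near SHT. This call was lost without SHT replicate 1 (-1.14), SHT replicate 3 (-1.07), MHT replicate 1 (-0.91) or MHT replicate 2 (-0.93), in a fit of the heat libraries alone (-1.11) and without scaling factors (-0.95), while the list had 3 without MHT replicate 3. Peptidases had 1 higher DEG among 76 (1.32%, against 2.79% of all tested unigenes) and 3 without MHT replicate 3. It was the acid protease gene_11626, at 16.4, 6.63 and 14.8 CPM in SHT, against 3.30, 5.23 and 5.63 CPM in MHT, lost without SHT replicate 1 (1.18), SHT replicate 3 (1.30), MHT replicate 1 (1.22) or MHT replicate 2 (1.52) and in a fit of the heat libraries alone (1.39). The 8 tested antioxidant enzymes, which break down reactive oxygen, had no DEG in either tool and none at an unadjusted p under 0.05. The lists of the mitochondrial ribosome (2), trehalose and glycogen (2), chromatin and histones (15), RNA polymerases (9), purine and pyrimidine metabolism (3), heterokaryon incompatibility (3), transposons (1) and protein phosphatases (13) had no DEG in edgeR or in DESeq2, and the values in brackets are members at an unadjusted p under 0.05. Oxidative phosphorylation had none in edgeR, 1 higher in DESeq2 and 2 at an unadjusted p under 0.05. With 1 library or both outlying libraries left out, the lists without a DEG in this paragraph had at most 3 in a direction. Of 89 tested members of ubiquitin, proteasome and autophagy 1 fell (1.12%, against 2.87% of all tested unigenes), the F-box protein gene_26670, and 3 without MHT replicate 3. Of 33 alpha/beta-hydrolases 2 rose, 6.06% against 2.79% of all tested unigenes, or 0 without SHT replicate 3 or MHT replicate 1 or 2.

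Most DEGs had no described function: 600 of the 736, or 6.05% of the 9924 tested unigenes of that kind, against 136 DEGs, or 4.40%, among the 3094 with an informative description. The most abundant unigene of the MHT and CK libraries was one of them, gene_15859, at 3663, 3775 and 4123 CPM in SHT, against 25885, 20517 and 15526 CPM in MHT and 32532, 22676 and 28551 CPM in CK (log2 fold change -2.42 ± 0.30, adjusted p = 0.00188). It took 1.59% to 2.54% of the counts in MHT and 2.13% to 2.83% in CK, whereas the largest share of any unigene in SHT was 0.549% to 0.724%. Close to it in the order of identifiers, gene_15857 moved the other way, at 1506, 556 and 2094 CPM in SHT, against 166, 121 and 204 CPM in MHT and 308, 427 and 243 CPM in CK (log2 fold change 3.08 ± 0.43, adjusted p = 0.00268). The largest fall of all DEGs was that of gene_13370, at 4.75, 3.22 and 4.26 CPM in SHT, against 63.03, 60.4 and 32.1 CPM in MHT and 89.1, 52.96 and 90.2 CPM in CK (log2 fold change -3.65 ± 0.33, adjusted p = 0.000351), and gene_3208, which has the same best match, was at 0.767, 0.758 and 1.85 CPM in SHT, against 21.1, 12.8 and 7.63 CPM in MHT, values in SHT that rest on few reads. In both, every SHT library was far below every MHT library. gene_9102 was at 55.98, 231 and 44.99 CPM in SHT, against 717, 809 and 1394 CPM in MHT and 5991, 4085 and 4541 CPM in CK and had a log2 fold change of -3.14, or -4.27 without SHT replicate 2. gene_7101 was at 56.7, 30.3 and 65.5 CPM in SHT, against 6.10, 5.77 and 10.6 CPM in MHT and 1.46, 1.69 and 2.40 CPM in CK (log2 fold change 2.77 ± 0.32, adjusted p = 0.00125), with SHT above MHT and MHT above CK in every library.

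DEGs of 1 direction often had neighbouring identifiers. Of the 349 lower DEGs with a tested neighbour, 178 (51.0%) had another lower DEG next to them, while 4.38% of the 12226 tested unigenes with a tested neighbour had one. Of the 332 higher DEGs with a tested neighbour, 100 (30.1%) had a higher DEG next to them, while 4.29% of the same 12226 had one. Counting only neighbours with another description, the shares were 49.9% and 28.9%. Runs of 3 or more consecutive DEGs of the same direction numbered 20 among the lower and 9 among the higher ones. Pieces of 1 gene model can match different database entries, and their part in these shares was not tested.

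The 935 unigenes left out of the test had a read count of 0 in at least 1 library. Of these, 10 had no read in any MHT library and reads in all SHT libraries, 9 had no read in any SHT library and reads in all MHT libraries, and 40 had no read in any of the 6 heat libraries. Among the 87 unigenes that the study's own product tables give by identifier, chosen there with these samples in view, 2 rose and 4 fell, 6.90% against 5.65% of all tested unigenes, which is no independent evidence because of that choice. All 87 were tested. With both SHT replicate 2 and MHT replicate 3 left out, 15 of them were higher and 9 lower, against 5.99% and 5.91% of all tested unigenes. The number higher was 1 without SHT replicate 3 or MHT replicate 1 or 2 and 13 without MHT replicate 3, and the number lower 0 without SHT replicate 3 and 11 without MHT replicate 3.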

How the data were processed

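RNA of mycelium from 9 plates was sequenced. The authors used fastp to filter the reads, Bowtie2 to take out rRNA, HISAT2 to align what was left to the genome of strain JKBL130LB, and StringTie to assemble and count unigenes. For these tools, versions and strand settings were not given in the sources used here. Values were deposited as raw whole-number counts per unigene, each with the description of its best BLASTX match in the NR protein database, so that names are those of matched proteins, often of other species. Of the 13018 unigenes tested, 9924 were described only as hypothetical, uncharacterized or the like.

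Unigenes with a count of at least 1 in all 9 libraries were tested with edgeR 4.0.16 and limma 3.58.1 in R 4.3.3 (trimmed mean of M-values scaling, quasi-likelihood test, 1 model over the 3 groups, two-sided, Benjamini-Hochberg adjustment over all tested unigenes). CPM values are scaled and not adjusted for unigene length. The code was tested on simulated data. P-values measure the spread between plates started from 1 initial plate. Tables were made with Python 3.11.15 and pandas 2.3.3 and figures with matplotlib 3.10.9.

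The members and the 40 function lists, made from words in the descriptions, were chosen with earlier results of these data known. Named were the 12 stable DEGs with the largest rise and the 12 with the largest fall among described unigenes of at least 10 CPM, up to 4 stable DEGs per list (or up to 2 DEGs with the smallest adjusted p where a list had none), the most abundant member of each list, 4 undescribed stable DEGs in each direction, and unigenes of the study's tables. Chosen outside this rule, after their values were seen, were gene_686, gene_1102, gene_1922, gene_2737, gene_3208, gene_3585, gene_4205, gene_6270, gene_6946, gene_7517, gene_7883, gene_7938, gene_9655, gene_9785, gene_9786, gene_12135, gene_12663, gene_12665, gene_14463, gene_15390, gene_15391, gene_15859, gene_17070, gene_17947, gene_18225, gene_18226, gene_18231, gene_21157, gene_21556, gene_22356, gene_23393, gene_23465, gene_23880, gene_24708, gene_24709, gene_24786, gene_25536, gene_26091 and gene_26092. Alternatives were DESeq2 1.42.0, other scalings, other filters, the heat libraries alone, a replicate block, summed neighbours of 1 description, other thresholds and libraries left out. Fold changes that the study lists were not used. Unigenes are given by identifier, since coordinates and sequences were not used here.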

Additional observations from a re-analysis of the deposited data

How the results depend on the processing

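Of the 736 DEGs (363 higher and 373 lower in SHT), 285 (119 higher, 166 lower) had an adjusted p under 0.01. With no fold threshold there were 1269 (627 higher, 642 lower). Without scaling factors 595 were higher. With 1 library left out, DEGs numbered 278 to 1428, of which 117 to 651 were higher and 159 to 777 lower. With SHT replicate 2 and MHT replicate 3 both left out, an alternative chosen after the data were seen, there were 1549 (780 higher, 769 lower). DESeq2 called 444 in each direction and 727 of the 736. The causes of these shifts were not tested, apart from the thresholds, which change the counts by construction.

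Whether the replicate numbers pair the samples cannot be settled with 3 libraries per group, and the main fit has no pairing. Deviations of same-numbered SHT and MHT libraries from their group means correlated at 0.44, -0.14 and 0.10. SHT replicates 1 and 3 correlated best with the MHT library of their own number, and SHT replicate 2 with MHT replicate 3 (0.26). A block for the replicate number left 641 DEGs (305 higher, 336 lower), 621 of them among the 736. Of the unigenes described above as DEGs, those that were no DEG in that fit had log2 fold changes of 1.59 (gene_12663), 2.04 (gene_12665), 1.10 (gene_14463), 2.76 (gene_17947), 1.22 (gene_21057), 1.28 (gene_21058), 2.17 (gene_21157), 1.02 (gene_6946), 1.00 (gene_24786) and -1.35 (gene_25128).

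No unigene whose values the report gives changed direction under any of these alternatives. With 3 libraries per group and low CPM values resting on few reads, folds of weak unigenes are uncertain. Function lists hold only unigenes whose description names a function, so they cover a part of each pathway.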
